A study of Arabidopsis thaliana with 18 samples.

Results

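The transcripts described here encode 10 enzymes of carotenoid biosynthesis and of the xanthophyll cycle in Arabidopsis thaliana. They are PSY, PDS, ZDS, CRTISO, LCYB, LCYE, BCH1, BCH2, ZEP and VDE, taken by their gene identifiers as steps of this pathway. All 10 were found among the 33331 genes of the expression table. Polyadenylated RNA was sequenced from aerial tissue of plants grown for 16 days in cycles of 12 h light and 12 h dark and then moved to continuous light (LL). Plants were harvested after 24 h in LL (LL24, subjective dawn) or after 36 h (LL36, subjective dusk), with 3 biological replicates per group. The series holds 18 libraries from 3 lines, and the 6 libraries of the Columbia 2 wild type (wt) were used here, 3 at LL24 and 3 at LL36. The labels name no transgene or agent for wt, and the groups differ in the time spent in continuous light. The lines AtGRP7-ox and grp7-1 8i were not analysed here.

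Carotenoids are made in plastids from geranylgeranyl diphosphate (GGPP), which the methylerythritol phosphate (MEP) pathway feeds. PSY joins GGPP into colourless phytoene, desaturases and an isomerase turn it into red lycopene, and cyclases split the flow into a branch towards lutein and a branch towards beta-carotene and the xanthophylls made from it. In the xanthophyll cycle, ZEP adds epoxide groups to zeaxanthin to give violaxanthin, and VDE removes them in strong light, when zeaxanthin helps leaves to dissipate excess energy as heat. Violaxanthin and neoxanthin are also the precursors of the hormone abscisic acid (ABA).

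Levels are given as TPM, which scale each gene to its length and to the library, so genes can be compared within a library. TPM keep no sequencing depth. The 6 libraries summed to 990489 to 992864 TPM over the genes listed, and 18523 to 18935 genes exceeded 1 TPM. The labels were checked with clock-controlled transcripts. The morning gene CCA1 had 184 ± 19.1 TPM (SD, n = 3) at LL24 and 4.12 ± 0.542 TPM at LL36, and the evening gene TOC1 had 6.82 ± 0.333 TPM and 60.9 ± 1.03 TPM. AtGRP7, the RNA-binding protein the study is about, had 121 ± 18.4 TPM and 4645 ± 199 TPM. The labelled tissue was checked with marker genes. The 4 green leaf markers summed to 36812 to 38479 TPM at LL24 and to 23441 to 25514 TPM at LL36. Of the 4 root markers, the root hair genes COBL9 and EXP7 lay between 0 and 0.616 TPM and CASP1 between 0.493 and 1.82 TPM, while PYK10 had 195 to 214 TPM. Of the 4 flower markers, AG, AP3 and PI were below 1 TPM in every library, and SEP3 had 1.34 to 4.22 TPM.

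To ask how the carotenoid pathway stands at subjective dawn and dusk, the 10 transcripts were compared between LL36 and LL24 in wt. Together they made up less of the library at LL36. Of the 10 transcripts, 7 were lower, VDE alone was higher, and CRTISO and LCYE were not called. The 3 LL24 libraries had summed levels of 1033, 1041 and 1099 TPM, and the 3 LL36 libraries had 656, 709 and 681 TPM. The groups did not overlap, with means of 1058 ± 36.3 TPM and 682 ± 26.5 TPM. In these bulk samples, fewer cells of a type and less RNA per cell cannot be told apart.

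A call means an adjusted p below 0.05 with limma on log2(TPM + 0.5), adjusted over the 19303 genes whose mean exceeded 1 TPM in at least 1 group. All 10 transcripts passed this filter. The background was high, since 52.4% of the tested genes passed, with 41.2% higher and 11.2% lower at LL36. Of the 10 carotenoid genes, 1 and 7 fell into these classes. On the TPM as deposited, the tested genes had a median log2 change of 0.21, a factor of 1.16. This median was 0.01 with median-of-ratios scaling, under which 16.0% of genes were called higher and 18.2% lower. It was 0.04 after quantile normalization, and 18.8% were called higher and 15.6% lower. Changes are therefore given relative to this shift of 0.21 and called relative changes, while the adjusted p refers to the change itself. With both other scalings, 8 of the 10 transcripts were lower and 1 was higher. The median relative change of the 10 was -0.72, beside 0 for all tested genes by construction. The LL36 libraries lay wholly below the LL24 libraries for 7 of the 10 and wholly above for 1, against 13.3% and 50.4% of all tested genes.

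**Figure D1:**
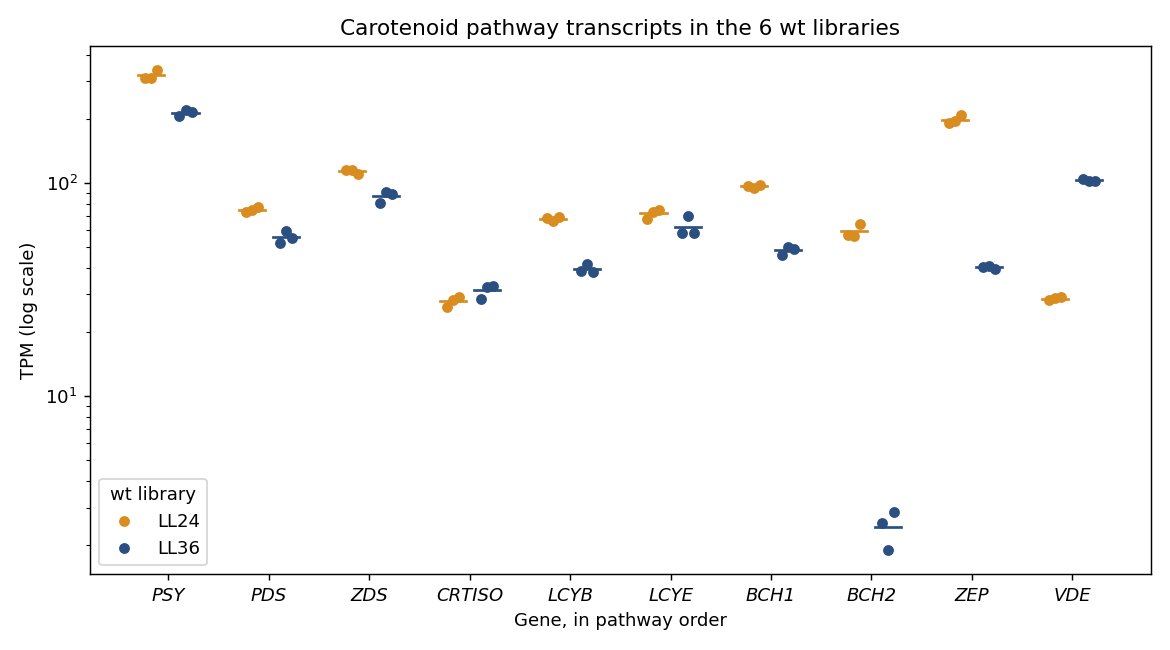
TPM on a log axis of the 10 carotenoid pathway transcripts in each of the 6 wt libraries, with LL24 in orange and LL36 in blue; points are libraries and short lines are group means. BCH2 drops from above 56 TPM to below 3 TPM, ZEP falls to about 40.1 TPM, and VDE is the only transcript whose LL36 libraries all lie above its LL24 libraries.

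PSY (AT5G17230, chr5:5659554-5662997, minus strand), which catalyses the first committed step, had 309.5, 309.4 and 338.8 TPM at LL24 and 206, 219 and 215 TPM at LL36. Every LL36 library lay below every LL24 library. The means were 319 ± 16.9 TPM and 213 ± 7.0 TPM (SD, n = 3), and the relative change was -0.79 (SE 0.06, adjusted p 0.000396, limma). PSY was the most abundant of the 10 at both times. Its share of their summed level was 30.2% at LL24 and 31.3% at LL36. On the opposite strand, GSTF12, a glutathione transferase gene, shares 108 exonic bases with PSY and had 124 to 147 TPM at LL24 and 18.6 to 28.7 TPM at LL36. Of the 100-base windows of PSY transcripts, 0.331% are found in GSTF12 as well. This share was 0.705% for ZDS, and none for PDS, CRTISO, LCYE, BCH1, BCH2 and ZEP.

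The desaturases act next and introduce the double bonds that give carotenoids their colour. PDS (AT4G14210, chr4:8190190-8195320, minus strand), the phytoene desaturase, had 72.8, 74.7 and 76.8 TPM at LL24 and 52.0, 59.6 and 54.9 TPM at LL36. ZDS (AT3G04870, chr3:1342455-1346387, plus strand), which continues the desaturation from zeta-carotene, had 115, 114 and 111 TPM at LL24 and 80.2, 90.9 and 88.9 TPM at LL36. In both genes the groups did not overlap, and the falls were of like size. PDS went from 74.7 ± 1.99 TPM to 55.5 ± 3.82 TPM, for a relative change of -0.64 (SE 0.06, adjusted p 0.00225, limma). ZDS went from 113 ± 2.36 TPM to 86.7 ± 5.66 TPM, for a relative change of -0.60 (SE 0.06, adjusted p 0.00288, limma). The confidence intervals of these relative changes, -0.79 to -0.49 for PDS and -0.75 to -0.45 for ZDS, overlapped over most of their width.

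CRTISO (AT1G06820, chr1:2092946-2096784, minus strand), the isomerase that yields all-trans lycopene, did not share the fall of PDS and ZDS. It had 26.2, 28.3 and 29.2 TPM at LL24 and 28.7, 32.6 and 32.7 TPM at LL36, and the groups overlapped. The means were 27.9 ± 1.56 TPM and 31.3 ± 2.30 TPM, and no difference was called (adjusted p 0.112, limma). The relative change was -0.05 with a 95% confidence interval of -0.23 to 0.13, and on the TPM as deposited the log2 change was 0.16, so its direction depended on the scaling.

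The lycopene cyclases LCYB and LCYE stand where the pathway divides. LCYB (AT3G10230, chr3:3164075-3166038, minus strand), which forms beta rings and serves both branches, had 68.7, 66.4 and 69.2 TPM at LL24 and 38.5, 41.4 and 38.3 TPM at LL36. Its LL36 libraries all lay below its LL24 libraries, with means of 68.1 ± 1.5 TPM and 39.4 ± 1.75 TPM and a relative change of -0.99 (SE 0.05, adjusted p 8.91e-05, limma). Genes on the opposite strand hold 8.23% of its 100-base windows, and of these genes AT3G10220 had 17.1 to 25.3 TPM and was not lower in any LL36 library than in the LL24 libraries.

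LCYE (AT5G57030, chr5:23077120-23080096, plus strand) forms the epsilon ring that only the lutein branch uses. It had 67.6, 73.3 and 74.9 TPM at LL24 and 57.9, 70.0 and 58.0 TPM at LL36. Replicate 2 at LL36 lay within the range of the LL24 libraries, and the other two LL36 libraries lay below it. The means were 71.9 ± 3.86 TPM and 62.0 ± 6.97 TPM, with a relative change of -0.43 (SE 0.09) and an adjusted p of 0.0809 (limma). LCYE was called lower with median-of-ratios scaling (adjusted p 0.0111), with quantile normalization (adjusted p 0.0303) and without replicate 2 at LL36 (adjusted p 0.0205).

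Because LCYB and LCYE both act on lycopene, the ratio of their transcripts was taken within each library. The ratio of LCYE to LCYB was 0.984, 1.10 and 1.08 at LL24 and 1.51, 1.69 and 1.51 at LL36. The groups did not overlap, and the ratio was 1.48-fold higher at LL36, with a two-sided exact permutation p of 0.1, the smallest that 3 libraries against 3 allow. LCYE exceeded LCYB in 2 of 3 LL24 libraries and in every LL36 library.

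The beta-carotene hydroxylases BCH1 and BCH2 form a pair of closely related enzymes that turn beta-carotene into zeaxanthin. BCH1 (AT4G25700, chr4:13093869-13096049, minus strand) had 96.6, 94.9 and 98.2 TPM at LL24 and 46.0, 50.004 and 48.9 TPM at LL36. BCH2 (AT5G52570, chr5:21334793-21337126, minus strand) had 57.2, 56.2 and 64.2 TPM at LL24 and 2.54, 1.89 and 2.86 TPM at LL36. Both were lower in every LL36 library, BCH2 by far more. BCH1 went from 96.6 ± 1.66 TPM to 48.3 ± 2.04 TPM, for a relative change of -1.21 (SE 0.05, adjusted p 2.76e-05, limma). BCH2 went from 59.2 ± 4.35 TPM to 2.43 ± 0.494 TPM, 24.4-fold lower on the TPM as deposited, with a relative change of -4.57 (95% confidence interval -4.89 to -4.26, adjusted p 2.87e-06, limma). This was the 10th deepest fall among the 19303 tested genes.

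Within each library, the ratio of BCH2 to BCH1 was 0.592, 0.592 and 0.654 at LL24 and 0.0551, 0.0378 and 0.0586 at LL36. It was 12.3-fold lower at LL36 without overlap (two-sided exact permutation p of 0.1, the smallest possible). No 100-base window is shared between BCH1 and BCH2 in the TAIR10.1 gene models, so reads of that length can tell the genes apart. Trimmed reads could be shorter, and shorter windows were not examined. BCH1 and BCH2 together made up 14.7% of the summed level of the 10 genes at LL24 and 7.44% at LL36.

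Promoters of the 10 genes, of which 8 were called between LL24 and LL36, were searched for motifs known from light and clock control, on both strands from 250 bases before to 50 bases after each annotated start. The motifs were the G-box CACGTG, bound by bZIP and bHLH factors, the evening element AAATATCT and the CCA1-binding site AAAAATCT, and no match of a motif overlapped a match of another. Each motif was found in 1 of the 10 genes, while 7.68%, 5.65% and 7.88% of 27443 promoters of the same 300 bases hold them. These counts are near the shares of all promoters, and a link between a motif and a change was not tested. The matches lie in the 3 genes below. They are shown with flanking bases, read from the TAIR10.1 genome of RefSeq on the gene's strand, with the motif in capitals. The first is 151 bases before the start of BCH2 (chr5:21337260-21337289, minus strand), the second begins at base 12 of the 5′ UTR exon of VDE (chr1:2706868-2706897, plus strand), and the third is 242 bases before the start of BCH1 (chr4:13096273-13096299, minus strand).
BCH2, G-box: ggaagaagaggcCACGTGgagccattaaat
VDE, evening element: caacaataaatAAATATCTcttataagaat
BCH1, CCA1-binding site: tttatactAAAAATCTagaaattaata
A match of letters is a description of these windows, and binding was not measured here.

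The transcripts of the xanthophyll cycle enzymes ZEP and VDE changed in opposite directions. ZEP (AT5G67030, chr5:26753469-26757402, minus strand), the zeaxanthin epoxidase also known as ABA1, had 191, 195 and 208 TPM at LL24 and 40.1, 40.9 and 39.2 TPM at LL36. VDE (AT1G08550, chr1:2706868-2709988, plus strand), the violaxanthin de-epoxidase, had 28.2, 28.8 and 29.1 TPM at LL24 and 104, 102 and 102 TPM at LL36. Neither gene had overlapping groups, and the LL36 values of each varied by no more than 2.1% (coefficient of variation, n = 3). ZEP went from 198 ± 9.09 TPM to 40.1 ± 0.844 TPM, 4.94-fold lower as deposited, with a relative change of -2.50 (SE 0.05, adjusted p 1.03e-06, limma). VDE went from 28.7 ± 0.480 TPM to 103 ± 1.27 TPM, 3.59-fold higher as deposited, with a relative change of 1.61 (SE 0.05, adjusted p 1.41e-06, limma).

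The ratio of ZEP to VDE was 6.80, 6.76 and 7.16 at LL24 and 0.384, 0.400 and 0.384 at LL36. The balance of these transcripts turned over, with ZEP in excess in every LL24 library and VDE in excess in every LL36 library. The ratio was 17.7-fold lower at LL36 (two-sided exact permutation p of 0.1, the smallest possible). Enzyme protein and pigments were not measured here. The share of these transcripts together in the summed level of the 10 genes was 21.4% at LL24 and 21.0% at LL36. VDE overlaps SYP111, a syntaxin gene of cytokinesis on the opposite strand, over 464 exonic bases, and shares 13.6% of its 100-base windows with it. SYP111 had 26.2 to 32.4 TPM over the 6 libraries, with overlapping groups.

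**Figure D2:**
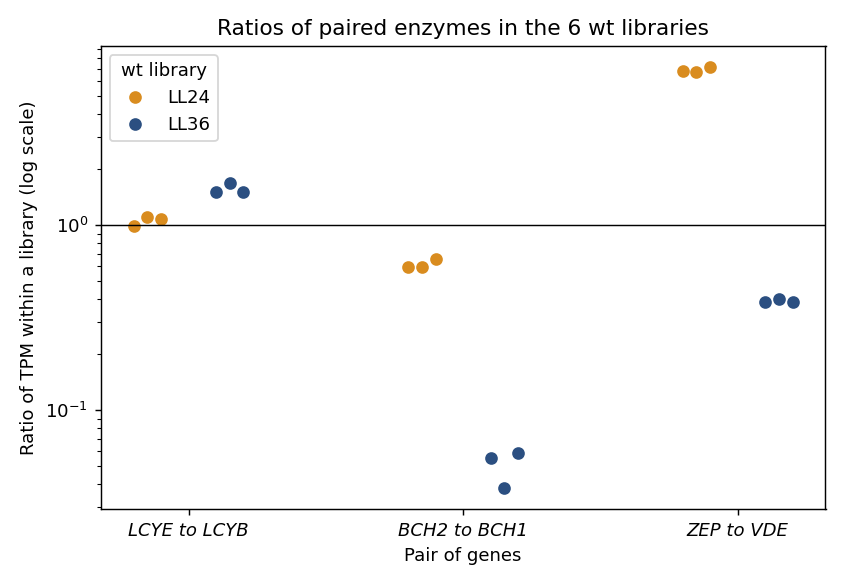
Ratio of TPM on a log axis for 3 pairs of genes in each of the 6 wt libraries, with LL24 in orange and LL36 in blue; the line marks a ratio of 1. The ratio of LCYE to LCYB lies higher at LL36, while those of BCH2 to BCH1 and ZEP to VDE lie lower in all 3 LL36 libraries, the last crossing 1.

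The order of the 10 transcripts differed between the time points. At LL24 it ran PSY, ZEP, ZDS, BCH1, PDS, LCYE, LCYB, BCH2, VDE and CRTISO. The ranges of PDS and LCYE overlapped, as did those of LCYE and LCYB and those of VDE and CRTISO. Within each LL24 library, PDS still exceeded LCYE, while the other overlapping neighbours changed order between libraries. At LL36 the order was PSY, VDE, ZDS, LCYE, PDS, BCH1, ZEP, LCYB, CRTISO and BCH2. Ranges overlapped only between LCYE and PDS and between ZEP and LCYB. Within each LL36 library, LCYE exceeded PDS, while ZEP and LCYB changed order between libraries. VDE moved from ninth place to second, ZEP from second to seventh, and BCH2 from eighth to last.

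**Figure D3:**
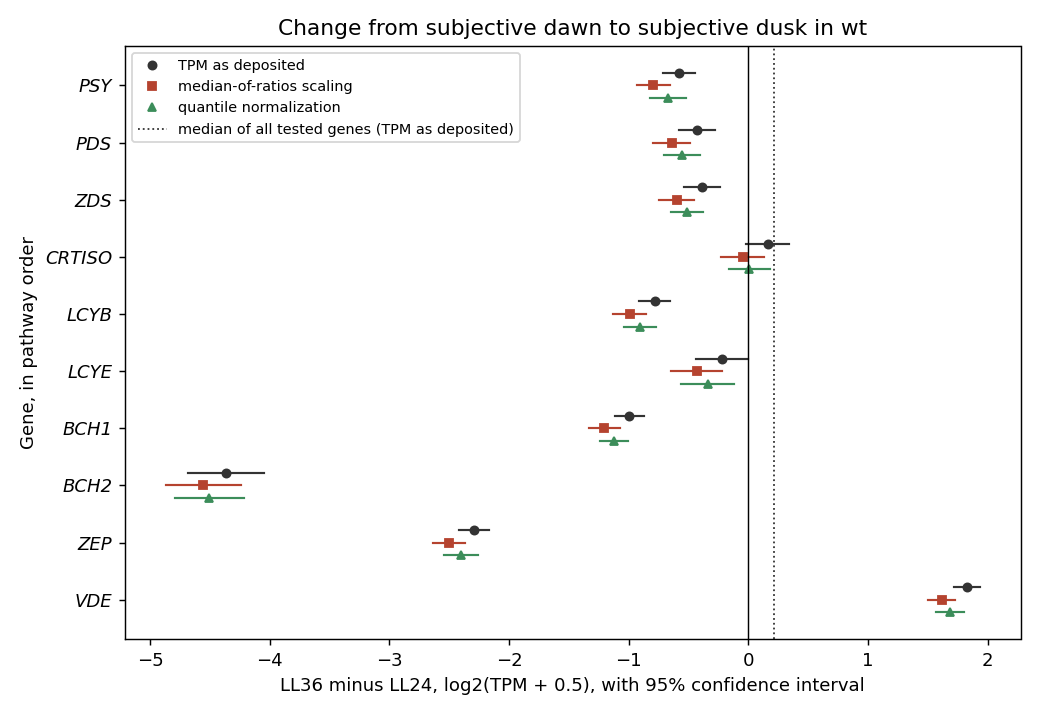
Change from LL24 to LL36 of the 10 transcripts, in log2(TPM + 0.5), on the TPM as deposited (circles), with median-of-ratios scaling (squares) and with quantile normalization (triangles); bars are 95% confidence intervals and the dotted line is the median of all tested genes, 0.21. CRTISO lies between -0.05 and 0.16, VDE is positive and the other genes are negative under all 3 scalings.

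To place the 10 genes in their surroundings, other genes of the same metabolism were examined as lists. Of the 10 genes of the MEP pathway and GGPP supply, 2 were called higher, 3 lower and 5 were not called. On the TPM as deposited, the background shares were 41.2% higher and 11.2% lower. The list had a median relative change of -0.20. Its counts were 1 higher and 4 lower with median-of-ratios scaling, against a background of 16.0% and 18.2%. With quantile normalization they were 1 and 3, against 18.8% and 15.6%. DXS, the entry enzyme of the MEP pathway, went from 272 ± 15.8 TPM to 139 ± 11.9 TPM, for a relative change of -1.18 (adjusted p 0.000176). HDR, its last enzyme, went from 295 ± 23.2 TPM to 105 ± 3.55 TPM, for a relative change of -1.70 (adjusted p 1.62e-05). The first and the last enzyme of the route had the deepest falls of the list. MDS, which acts between them, was called lower with a relative change of -0.42. The isopentenyl diphosphate isomerase gene IPP1 was higher, with 31.8 ± 0.737 TPM and 41.8 ± 1.00 TPM (relative change 0.18). GGPS1, the other gene called higher, was not called with either other scaling. A gene on the opposite strand holds 100% of the 100-base windows of GGPS1.

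Of 8 other genes of carotenoid steps or their partners, 4 were called higher and 2 lower, beside 41.2% and 11.2% of all tested genes. Their median relative change was -0.01. Only 1 gene stayed called higher with either other scaling, while 2 stayed lower. PSBS, the photosystem II protein that works with zeaxanthin in heat dissipation, went from 3046 ± 66.1 TPM to 1503 ± 44.1 TPM, for a relative change of -1.23 (adjusted p 1.11e-05). OR, a chaperone of PSY protein, went from 82.8 ± 6.83 TPM to 48.4 ± 0.776 TPM, for a relative change of -0.98 (adjusted p 0.000283). ABA4, needed for neoxanthin synthesis, was higher under all 3 scalings, with 46.4 ± 3.18 TPM and 61.7 ± 2.25 TPM (relative change 0.20). LUT1, a hydroxylase of the lutein branch, was called higher only on the TPM as deposited (relative change 0.09), and a neighbouring gene holds 37.4% of its 100-base windows.

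Downstream of the xanthophylls, 6 of 12 genes of carotenoid cleavage and ABA synthesis could be tested. Of these, 1 was called higher and 2 lower, beside 41.2% and 11.2% of all tested genes. The dioxygenase CCD4, which degrades carotenoids, went from 42.8 ± 2.28 TPM to 29.0 ± 2.01 TPM, for a relative change of -0.77 (adjusted p 0.00128). ABA2, which makes abscisic aldehyde, went from 20.7 ± 0.546 TPM to 14.9 ± 0.276 TPM, for a relative change of -0.67 (adjusted p 0.000711), and shares 25.1% of its 100-base windows with genes on the opposite strand. ABA3 was called higher as deposited (adjusted p 0.0176) but under neither other scaling (adjusted p 0.0999 and 0.0987). NCED3, the drought-induced enzyme that commits carotenoids to ABA, was low at 3.42, 1.52 and 1.28 TPM at LL24 and 1.87, 1.62 and 1.67 TPM at LL36 and was not called (adjusted p 0.742). NCED2, NCED5, NCED9, CCD7 and CCD8 stayed below 1 TPM in every library, and NCED6 was listed at 0 in all 6.

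GGPP also gives the side chains of chlorophyll and tocopherol. Of 4 tested genes of these uses, 3 were called lower under all 3 scalings, and VTE2 was higher only on the TPM as deposited (relative change 0.16). Over all tested genes, 11.2% were called lower and 41.2% higher on the TPM as deposited. GA1, the entry to gibberellins, was below 1 TPM. CHLP, the geranylgeranyl reductase for chlorophyll and tocopherol, went from 1038 ± 15.7 TPM to 529 ± 33.4 TPM, for a relative change of -1.18 (adjusted p 4.24e-05). VTE1, the tocopherol cyclase, went from 48.8 ± 1.67 TPM to 12.9 ± 0.432 TPM, for a relative change of -2.09 (adjusted p 2.55e-06).

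Regulators that are known to act on carotenoid genes, most of them light regulators, were followed as well. Of 8 such genes, 3 were lower, 1 was higher and 4 were not called under all 3 scalings. Over all tested genes, 11.2% were called lower and 41.2% higher on the TPM as deposited. HYH, a bZIP factor related to HY5, went from 124 ± 5.97 TPM to 19.4 ± 3.29 TPM, for a relative change of -2.87 (adjusted p 1.52e-05). HY5, a G-box binding activator of PSY, went from 17.0 ± 1.28 TPM to 11.2 ± 0.706 TPM, for a relative change of -0.79 (adjusted p 0.00154). Among the phytochrome-interacting factors, PIF5 went from 51.4 ± 7.73 TPM to 11.2 ± 0.324 TPM (relative change -2.35), while PIF4 went from 6.85 ± 1.04 TPM to 15.0 ± 2.06 TPM (relative change 0.87). PIF1, which represses PSY in the dark, was not called, with 8.69 ± 1.32 TPM and 9.83 ± 0.560 TPM (adjusted p 0.221).

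**Figure D4:**
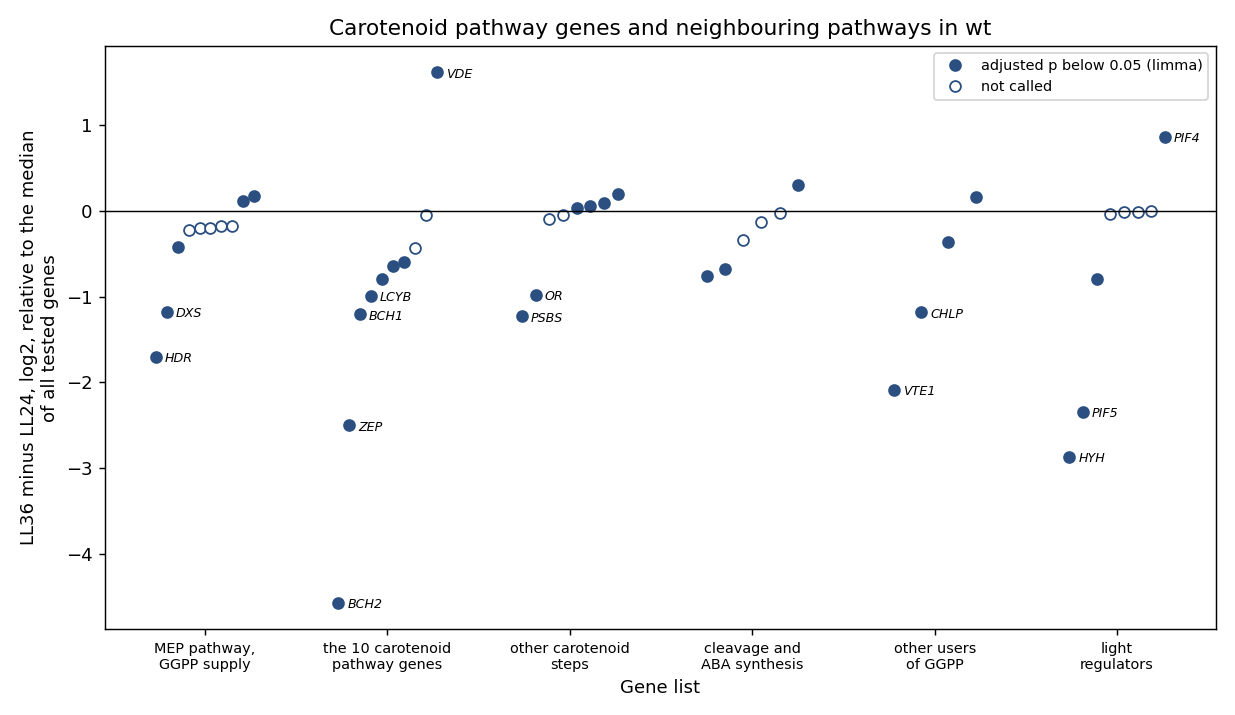
Change from LL24 to LL36 relative to the median of all tested genes, on the log2 scale, for the 10 carotenoid pathway genes and 5 lists of neighbouring pathways; each point is a gene, filled where the adjusted p was below 0.05 with limma and open where it was not. Most points lie between -2 and 1, with BCH2 at -4.57 and VDE at 1.61 as the extremes.

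Markers of green tissue moved with the falling members. All 4 markers, RBCS1A, RCA, LHCB2.1 and PSBP-1, were called lower on the TPM as deposited, beside 11.2% of all tested genes. Their median relative change was -1.09, and 2 of 4 were lower with quantile normalization. PSBP-1 was not called there, with a log2 change of 0.08. RBCS1A could not be called there, because this method gives genes of equal rank the same value in every library. With median-of-ratios scaling, the log2 change of RBCS1A was -0.68 (adjusted p 0.000184, limma). The part of these markers in the changes of the carotenoid genes was not tested. The 4 root markers summed to 196 to 216 TPM at LL24 and 199 to 210 TPM at LL36, nearly all of it PYK10. The 4 flower markers summed to 2.12 to 3.23 TPM and 2.81 to 5.36 TPM. Of both lists, only CASP1, PYK10 and SEP3 passed the filter, and none of them was called on the TPM as deposited. PYK10 was called lower with median-of-ratios scaling (log2 change -0.22, adjusted p 0.0255, limma) but not with quantile normalization.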

How the data were processed

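The authors trimmed and filtered the reads with Sickle, used only the first read of each pair, mapped them with STAR 2.5.2a to the atRTD transcripts of the TAIR10 genome, quantified them with Salmon 0.8.2 and combined transcripts by gene with tximport. The deposited table gives TPM per gene, with replicates kept apart. Library preparation with the TruSeq kit did not mark strand, so reads of overlapping genes on opposite strands cannot be told apart.

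The analysis rests on the 6 columns named as the wt samples are. A further 12 columns of per-sample values match no label and were left out, and a fit intended for 18 libraries was therefore made on 6. Values were transformed as log2(TPM + 0.5), and genes whose mean exceeded 1 TPM in at least 1 group were tested with limma 3.58.1 in R 4.3.3 (mean-variance trend, two-sided, Benjamini-Hochberg adjustment). On this scale the change of low genes is understated. Ratios were compared by exact permutation over libraries (scipy 1.17.1). TPM keep no depth, so no counting interval was given. The build of the sequences, TAIR10.1, has another name than that of the authors, whose table holds no coordinates. Of 33331 identifiers, 32811 were in the RefSeq table of names. The 10 genes were all named, with the called genes of largest change in each list and list genes below 1 TPM. Members and lists were set by pathway, with no measured value in the rule, but chosen with earlier results of these data known.

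Alternatives were median-of-ratios scaling, quantile normalization, other pseudocounts (0.1 and 1), no filter on low values or a higher minimum (5 TPM), no trend, the replicate number as a block, leaving out each library in turn and, chosen after seeing the data, removal of the 100 most abundant genes. A fit on only the groups compared is the fit made here.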

Additional observations from a re-analysis of the deposited data

How the results depend on the processing

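Between 8 and 9 of the 10 genes were called in the 15 alternatives run, and 8 genes kept their direction and call in all 15. The exceptions were LCYE and CRTISO. LCYE, not called on the TPM as deposited, was called lower with median-of-ratios scaling (-0.43), under quantile normalization (-0.34), without the 100 most abundant genes (-0.33) and without LL36 replicate 2 (-0.31). CRTISO changed sign to -0.0472 with median-of-ratios scaling (adjusted p 0.663, limma), where the scaling removes the shift of all genes. Leaving out 1 library at a time gave log2 changes of -4.47 to -4.22 for BCH2, -2.31 to -2.25 for ZEP and 1.81 to 1.84 for VDE. The ratios kept their direction in 24 of 24 alternatives. Over all tested genes, 10107 were called, 78.6% of them higher, against 6599 (46.9%) after median-of-ratios scaling and 6646 (54.7%) after quantile normalization. Same-numbered libraries correlated in their deviations with r of 0.128, 0.148 and 0.0341. Differently numbered libraries had lower values, with r of -0.133 to 0.0089. The study names no pairs, so the main fit used no block. A block on the replicate number gave 9947 called genes, 8 of the 10 among them and no changed call, and the ratio of LCYE to LCYB differed by 0.57 on the log2 scale. Not run were the comparisons that need AtGRP7-ox or grp7-1 8i. With 3 libraries per group the ratio test cannot pass 0.05.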
